A study of Mus musculus with 16 samples.

Results

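A set of 9 transcription factors of keratinocyte differentiation, *Trp63*, *Klf4*, *Grhl3*, *Ovol1*, *Zfp750*, *Gata3*, *Prdm1*, *Maf* and *Cebpa*, was followed in epidermal cells of the mouse footpad. They were chosen by name from textbook roles in the epidermis, with earlier results of these data known. The rows of the count table whose Ensembl identifier carries one of these symbols gave all 9 members. The table held 50600 gene identifiers, of which 22155 genes had enough counts to test. The study asked how dietary ligands of the aryl hydrocarbon receptor (AhR), a ligand-activated transcription factor, shape the skin response to an allergen. Female C57/B6J mice ate a purified diet, AIN-93M, which holds few AhR ligands (AhR-poor diet), or that diet with 200 ppm of indole-3-carbinol, a precursor of such ligands (I3C diet), starting at 5 wk of age and lasting 3 wk. Footpads were then injected with 50 μl of PBS alone (vehicle) or holding 50 μg of papain, a protease allergen, and epidermal cells were collected 6 hr afterwards. The 16 libraries formed 4 groups of 4 biological replicates, namely I3C vehicle, I3C papain, AhR-poor vehicle and AhR-poor papain. Mice given the same diet were housed together, so that effects of diet and of cage cannot be told apart, and p-values measure the spread between these replicates.

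The epidermis renews itself from a basal layer of dividing keratinocytes, which move outwards through the spinous and granular layers and end as the cornified barrier. Each step is run by transcription factors: p63 sets and keeps the basal identity, *Cebpa* and *Ovol1* accompany the exit from the cell cycle, *Zfp750* and *Klf4* switch on the late programme, *Grhl3* and *Gata3* serve the barrier, and *Prdm1* and *Maf* act in the last steps. Several of them also work in immune cells, *Gata3* in T cells and *Prdm1* and *Maf* in lymphocytes and macrophages.

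Library totals ran from 22500821 to 51844375 counts, and 3 counts, taken as the floor of detection, equalled 0.0569 to 0.130 CPM (read counts relative to library size, scaled with TMM factors), a limit that covers counting error only. Keratinocyte genes were abundant, as the tissue label says, with 10 spinous layer genes summing to between 26643 and 69057 CPM in every library. Markers of other cells were also counted and differed between groups. The 9 dermal fibroblast markers summed to 20.05 to 24.8 CPM in I3C vehicle, 11.9 to 25.8 in I3C papain, 108.99 to 190.4 in AhR-poor vehicle and 277 to 666 CPM in AhR-poor papain, with *Mfap5* at the floor in both I3C groups. The 5 neutrophil markers summed to 0.517 to 0.952 CPM in I3C vehicle, 19.98 to 29.5 in I3C papain, 1.69 to 2.40 in AhR-poor vehicle and 38.9 to 179.9 CPM in AhR-poor papain, and *Ly6g* was at the floor in the first 3 of these groups (in I3C vehicle together with *Csf3r*, *Retnlg* and *Fpr1*). In bulk samples, fewer cells of a type and less RNA per cell cannot be told apart.

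All 9 members lay far above the floor in every library (the lowest value was 3.87 CPM, for *Prdm1*), so that each passed the filter of 10 counts over the 16 libraries. Ranked by CPM per kb of exonic length, the scale on which levels of different genes can be compared, they spanned a wide range. *Klf4* was first with a mean of 417 CPM per kb over the 16 libraries, higher than 99.5% of 22093 genes with a known length, followed by *Cebpa* (181), *Ovol1* (100.7), *Zfp750* (89.3), *Trp63* (49.6), *Grhl3* (39.0), *Maf* (36.0) and *Gata3* (35.6 CPM per kb, above 94.0% of genes). *Prdm1* stood apart at 1.94 CPM per kb, near the middle of all genes tested (above 55.1%). *Klf4* and *Cebpa* were first and second, *Trp63* next after *Ovol1* and *Zfp750*, and *Prdm1* last in all 4 groups, and in each group the libraries of *Klf4* and of *Prdm1* did not overlap those of their neighbour in the order. *Grhl3*, *Maf* and *Gata3* overlapped each other in every group where they were neighbours and changed places between groups, so their order is not resolved by these replicates. The same held for *Ovol1* and *Zfp750*.

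**Figure D1:**
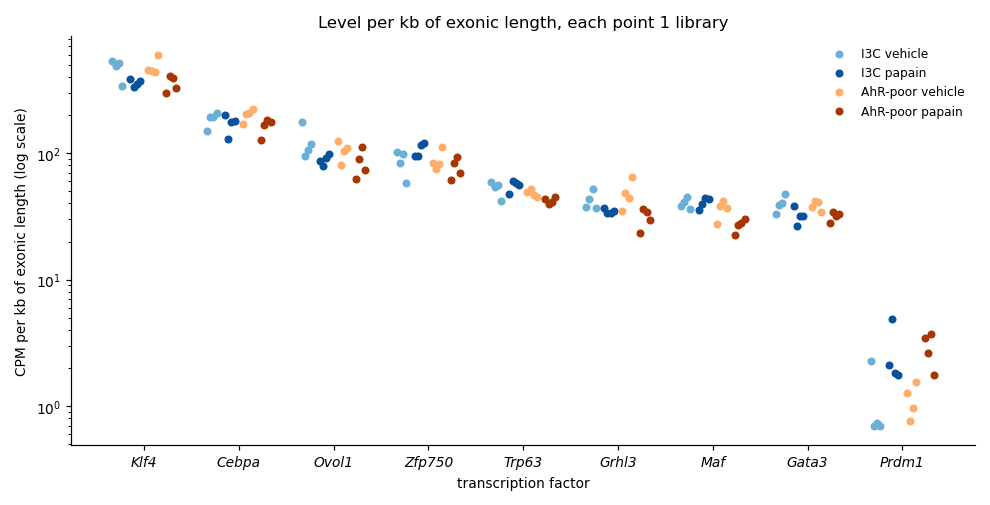
CPM per kb of exonic length (log axis) of the 9 transcription factors, ordered by their mean over 16 libraries, with 1 point per library and a colour for each group. *Klf4* lies at the top with a mean of 417 CPM per kb, *Prdm1* at the bottom with 1.94, and the other 7 factors between 35.6 and 181.

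Values are given below for each library in a fixed order, which is T108, T109, T110 and T111 for I3C vehicle, T106, T113, T114 and T115 for I3C papain, T100, T101, T102 and T103 for AhR-poor vehicle and T104, T105, T107 and T112 for AhR-poor papain. A member is said to have passed the test, or to have risen or fallen, at an adjusted p below 0.01 (edgeR's quasi-likelihood F test, Benjamini-Hochberg over 22155 genes), and was called where it was also changed at least 2-fold. Exact permutation tests are two-sided and compare 4 libraries with 4, for which 0.0286 is the smallest p possible. Log2 changes are given ± SE.

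**Figure D2:**
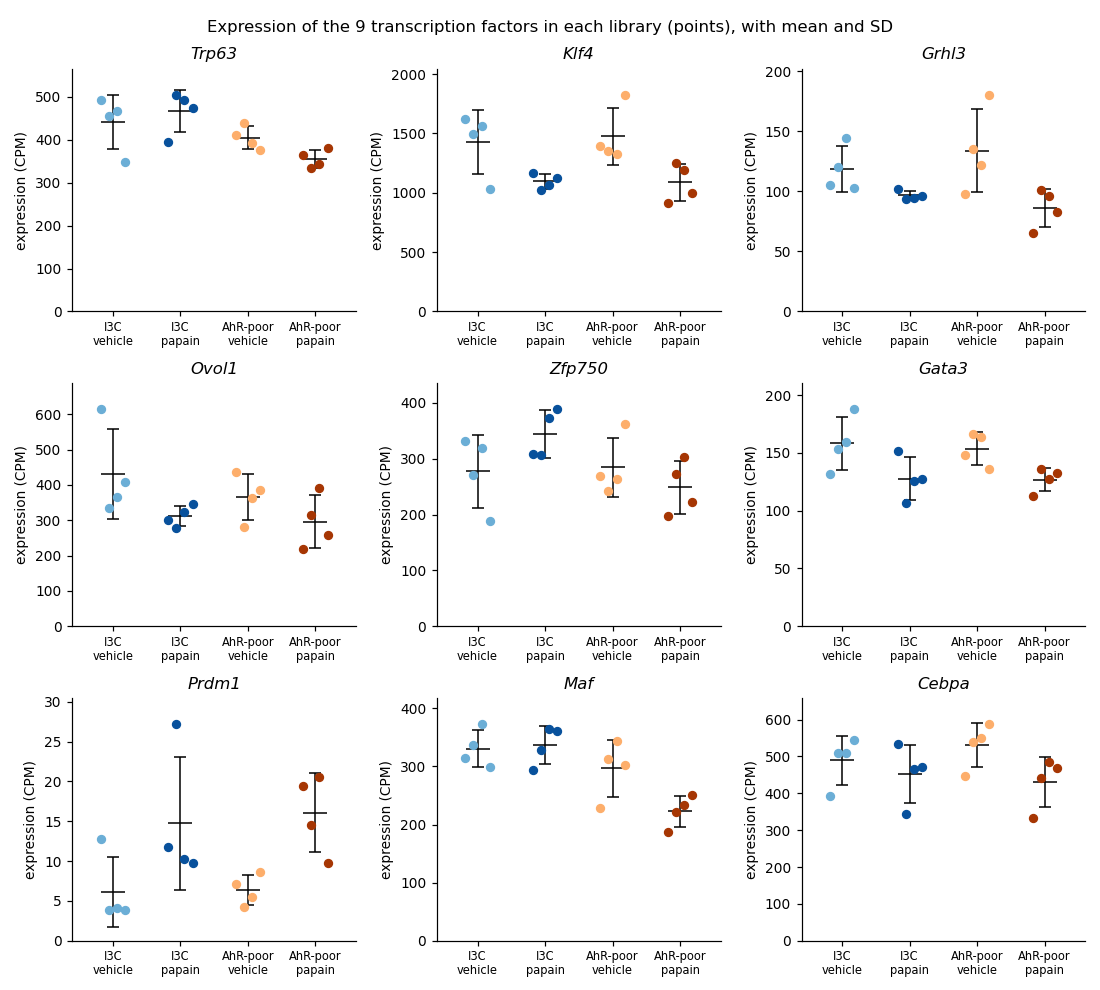
Expression in CPM (axis from 0) of each transcription factor in the 4 groups, with 1 point per library, a horizontal bar for the mean and error bars for the SD (n = 4). *Trp63* and *Maf* lie lower in AhR-poor papain than in I3C papain with no overlap, and *Prdm1* lies higher in AhR-poor papain than in AhR-poor vehicle with no overlap.

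*Trp63* encodes p63, the factor without which no stratified epidermis forms. The gene spans chr16:25683763-25892102 (GRCm38, plus strand), and since counts are per gene, its isoforms with and without the transactivation domain were not separated. *Trp63* was measured on the I3C diet at 492, 454, 466 and 348 CPM with vehicle and at 395, 505, 491 and 473 CPM with papain. AhR-poor *Trp63* levels were 410.1, 438, 392 and 376 CPM with vehicle and 364, 334, 343 and 381 CPM with papain. The 4 AhR-poor papain libraries were all lower than the 4 I3C papain libraries, whereas the vehicle groups of the 2 diets overlapped. With papain, *Trp63* was lower on the AhR-poor diet by a log2 change of -0.39 ± 0.10 (SE, n = 4 and 4, adjusted p = 0.00857), 0.763 of the I3C level, with an exact permutation p of 0.0286. Papain against vehicle gave -0.18 ± 0.10 (SE, n = 4 and 4, adjusted p = 0.168) on the AhR-poor diet and 0.082 ± 0.10 (SE, n = 4 and 4, adjusted p = 0.57) on the I3C diet. The diet difference with papain did not pass the test after leaving out any one of T104, T105, T107, T112, T113, T114 or T115, and over all 16 such fits ran from -0.45 to -0.34 with adjusted p from 0.00134 to 0.0297.

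*Ovol1* and *Cebpa* accompany the departure of keratinocytes from the basal layer, *Ovol1* as a zinc finger repressor of proliferation genes and *Cebpa* as a leucine zipper factor of the same family as *Cebpb*. *Ovol1* (chr19:5549136-5560646, minus strand) read 615, 333, 366 and 409.8 CPM in I3C vehicle and 302, 277, 322 and 346 CPM in I3C papain. AhR-poor *Ovol1* levels were 438, 281, 362 and 386 CPM with vehicle and 218, 316, 391 and 258 CPM with papain. Library T108 was well above the other 3 of its group, and on both diets the vehicle and papain libraries overlapped. Papain against vehicle was -0.47 ± 0.20 (SE, n = 4 and 4, adjusted p = 0.0859) on the I3C diet and -0.31 ± 0.20 (SE, n = 4 and 4, adjusted p = 0.266) on the AhR-poor diet, and neither passed. Without T108 the I3C value was -0.25 (adjusted p = 0.306). Of the exonic bases of *Ovol1*, 766 of 3488 are shared with genes on the opposite strand (*AC126029.1* and *Gm31166*), and the strand setting of the counting is not given in the sources used here, so its counts may include reads of those genes.

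*Cebpa* (chr7:35119293-35121928, plus strand, with 51 exonic bases shared with *Gm45091* on the other strand) was found at 394, 509, 511 and 544 CPM in I3C vehicle and at 533, 344, 466 and 471 CPM in I3C papain. AhR-poor *Cebpa* levels were 447, 538, 549 and 589 CPM with vehicle and 334, 441, 484 and 469 CPM with papain. Groups overlapped in every comparison, with T108, T113, T100 and T104 each the lowest of its group. The papain difference was -0.30 ± 0.14 (SE, n = 4 and 4, adjusted p = 0.112) on the AhR-poor diet and -0.11 ± 0.14 (SE, n = 4 and 4, adjusted p = 0.588) on the I3C diet, and the 95% intervals ran over -0.59 to -0.0053 and -0.40 to 0.18, so a change of 2-fold in either direction lay outside both.

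*Zfp750*, a zinc finger protein encoded by a direct p63 target, and *Klf4*, a Krüppel-like factor needed for barrier formation, belong to one late differentiation axis. *Zfp750* (chr11:121510978-121519333, minus strand, inside *Tbcd* but sharing no exon with it) was read at 332, 271, 319 and 188 CPM in I3C vehicle and 309, 306, 373 and 389 CPM in I3C papain. AhR-poor *Zfp750* levels were 269, 242, 264 and 362 CPM with vehicle and 197, 272, 303 and 223 CPM with papain. The lowest I3C papain library, T113, was above the highest AhR-poor papain library, T107, by a small margin, and all other pairs of groups overlapped. The difference of diets with papain was -0.47 ± 0.18 (SE, n = 4 and 4, adjusted p = 0.0758) with an exact permutation p of 0.0286, and did not pass. Papain against vehicle was 0.31 ± 0.18 (SE) on the I3C diet and -0.19 ± 0.18 (SE) on the AhR-poor diet (adjusted p = 0.197 and 0.451), signs that differ, and the interaction, which tests that difference, was -0.50 ± 0.25 (SE, adjusted p = 0.393).

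*Klf4* (chr4:55527143-55532466, minus strand) had 1624, 1497, 1561 and 1034 CPM in I3C vehicle and 1166, 1024, 1064 and 1129 CPM in I3C papain. AhR-poor *Klf4* levels were 1395, 1349, 1328 and 1827 CPM with vehicle and 917, 1252, 1189 and 995 CPM with papain. On the AhR-poor diet every papain library was below every vehicle library, with T103 far above the other vehicle libraries, and on the I3C diet the groups overlapped through T111 alone, whose 1034 CPM lay among the papain values. Papain against vehicle was -0.44 ± 0.14 (SE, n = 4 and 4, adjusted p = 0.0179) on the AhR-poor diet and -0.38 ± 0.14 (SE, n = 4 and 4, adjusted p = 0.034) on the I3C diet, of similar size and short of the threshold on both. In the 16 fits that left out 1 library, the difference passed in 2 on the AhR-poor diet and in 1 on the I3C diet. It ran from -0.51 to -0.31 on the AhR-poor diet (adjusted p from 0.00414 to 0.0753). On the I3C diet it ran from -0.50 to -0.32 (adjusted p from 0.00197 to 0.104). Without T111 the values were -0.43 (adjusted p = 0.00414) and -0.50 (adjusted p = 0.00197), both past the threshold, and without T105 the AhR-poor value was -0.51 (adjusted p = 0.00901).

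*Grhl3* encodes a Grainyhead-like factor needed for barrier formation and wound closure, and *Gata3* a zinc finger factor of barrier lipid synthesis and hair follicle fate. *Grhl3* (chr4:135541888-135573630, minus strand) was counted at 105.1, 121, 145 and 103.1 CPM in I3C vehicle and 102.1, 93.8, 94.4 and 96.5 CPM in I3C papain. AhR-poor *Grhl3* levels were 97.8, 135, 122 and 180.5 CPM with vehicle and 65.3, 101.001, 95.8 and 83.2 CPM with papain. On the I3C diet, all 4 papain libraries were below all vehicle libraries, the lowest vehicle library T111 by very little, and the papain libraries lay very close together. The AhR-poor groups overlapped, since T100 with vehicle was below T105 with papain.

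On the AhR-poor diet *Grhl3* fell by 0.63 ± 0.17 on the log2 scale (SE, n = 4 and 4, adjusted p = 0.00727, 95% interval -0.98 to -0.28), to 0.645 of the vehicle level, with an exact permutation p of 0.0571. The I3C value was -0.29 ± 0.16 (SE, n = 4 and 4, adjusted p = 0.193) with an exact permutation p of 0.0286. The AhR-poor value still passed in the fits without T100, T105, T108 or T110 and not without any of the other 12 libraries, and over all 16 such fits the values ran from -0.75 to -0.44 with adjusted p from 0.00124 to 0.0266. With the mean level of the fibroblast markers as a covariate the value was -0.67 with an adjusted p of 0.236, and with that of the neutrophil markers -1.05 with an adjusted p of 0.338. Both marker levels separate AhR-poor papain from AhR-poor vehicle completely, so that in such fits papain and marker level cannot be told apart, for *Grhl3* as for the other members and genes below. Of all genes, 2749 rose and 2228 fell on the AhR-poor diet in the fit without a covariate, 739 and 430 with the fibroblast markers and 131 and 41 with the neutrophil markers, so that a difference that no longer passes with a covariate is the common case. All 9 fibroblast markers and all 5 neutrophil markers rose in the same comparison, and their part in it was not tested beyond these fits.

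Promoter windows were searched for motifs in 5 members, *Klf4*, *Grhl3*, *Gata3*, *Prdm1* and *Cebpa*. The 250 bases upstream are shown for *Grhl3*, the 1 of these that passed in a papain comparison, and for *Prdm1*, which passed in none but had the largest log2 values, a choice made after their values were seen. The promoter of *Grhl3* lies at chr4:135573633-135573882 and that of *Prdm1* at chr10:44458749-44458998 (RefSeq, GRCm38.p6, minus strand, 5′ to 3′). Capitals mark matches to the letters CACCC (KLF box, GGGTG on the other strand) in *Grhl3* and to GCGTG (core of the AhR response element, CACGC on the other strand) in *Prdm1*. The *Prdm1* window lies inside the span of the gene, at the start that RefSeq lists.
Grhl3: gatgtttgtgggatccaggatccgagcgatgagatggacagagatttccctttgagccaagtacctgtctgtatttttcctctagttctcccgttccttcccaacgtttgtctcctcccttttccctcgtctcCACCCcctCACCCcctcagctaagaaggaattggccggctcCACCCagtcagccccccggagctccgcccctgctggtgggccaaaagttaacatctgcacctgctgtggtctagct
Prdm1: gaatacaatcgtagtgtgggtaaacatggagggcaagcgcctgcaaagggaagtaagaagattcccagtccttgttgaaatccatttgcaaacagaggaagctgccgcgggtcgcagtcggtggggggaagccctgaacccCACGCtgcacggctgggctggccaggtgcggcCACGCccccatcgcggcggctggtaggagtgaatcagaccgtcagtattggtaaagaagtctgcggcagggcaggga
*Grhl3* held 3 KLF boxes, the outermost 117 and 76 bases before the start, and *Prdm1* 2 AhR cores, the nearer 77 bases before it. Both strands were searched, in windows from 250 bases before to 50 after the start. Of all 32851 mouse windows of this length, 57.5% held CACCC and 32.4% held GCGTG at least once, so that a match is common. Of the 5 members with a window, *Gata3* held 3 KLF boxes, 2 of them overlapping, *Cebpa* 2 and *Klf4* none. TGACTCA (AP-1, in 5.20% of all windows) and AACCGGTT (Grainyhead-like, in 0.146%) were found in none of the 5. A match describes the letters only.

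*Gata3* (chr2:9857078-9890034, minus strand, with 77 exonic bases shared with *9230102O04Rik* on the same strand and 155 with *Gm13256* on the other) was at 132, 154, 159.8 and 188 CPM in I3C vehicle and 151, 106.2, 126 and 127 CPM in I3C papain. AhR-poor *Gata3* levels were 148, 167, 164 and 136 CPM with vehicle and 112.4, 136, 127 and 133 CPM with papain. On each diet, 3 of 4 papain libraries were below all vehicle libraries. Papain against vehicle was -0.31 ± 0.11 (SE, n = 4 and 4, adjusted p = 0.0347) on the I3C diet and -0.28 ± 0.11 (SE, n = 4 and 4, adjusted p = 0.0631) on the AhR-poor diet, nearly the same value. The I3C value passed the threshold without T106, at -0.41 (adjusted p = 0.00746), or without T108, at -0.39 (adjusted p = 0.00972), and without T111 it was -0.21 (adjusted p = 0.142). The 6 T cell markers summed to 14.3 to 20.9 CPM in I3C vehicle, 10.6 to 32.5 in I3C papain, 18.9 to 31.95 in AhR-poor vehicle and 22.3 to 59.3 CPM in AhR-poor papain.

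*Prdm1* encodes BLIMP1, a zinc finger transcriptional repressor that acts in the last granular steps and in lymphocyte maturation. It was the member with the largest papain differences and the lowest level. *Prdm1* (chr10:44437177-44528501, minus strand) gave 12.7, 3.87, 4.08 and 3.90 CPM in I3C vehicle and 11.8, 27.2, 10.2 and 9.77 CPM in I3C papain. AhR-poor *Prdm1* levels were 7.06, 4.29, 5.44 and 8.64 CPM with vehicle and 19.4, 14.6, 20.6 and 9.79 CPM with papain. Every AhR-poor papain library was above every AhR-poor vehicle library. On the I3C diet 3 vehicle libraries were between 3.87 and 4.08 CPM and all papain libraries at least 9.77, but T108 with vehicle lay within the papain range, and T113 with papain was far above the other 3 of its group.

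The *Prdm1* difference between papain and vehicle was 2.53-fold on the AhR-poor diet, 1.34 ± 0.45 (SE, n = 4 and 4, adjusted p = 0.0351), and 2.40-fold on the I3C diet, 1.26 ± 0.45 (SE, n = 4 and 4, adjusted p = 0.044), and did not pass the threshold of 0.01 on either. The 95% intervals were wide, 0.36 to 2.31 and 0.29 to 2.24, and the exact permutation p was 0.0286 and 0.114. All 16 libraries share the estimate of spread, so a single library bears on both diets. Without T108 *Prdm1* was called in both comparisons, at 1.34 (adjusted p = 0.00719) and 1.89 (adjusted p = 0.00165). Without T113 the I3C value was 0.79 (adjusted p = 0.171) and was not called. In a fit of the 8 AhR-poor libraries alone *Prdm1* was called at 1.33 (adjusted p = 0.00431), whereas in a fit of the 8 I3C libraries alone it was 1.29 (adjusted p = 0.0729). Neutrophil markers rose in 5 of 5 on the AhR-poor diet and in 1 of 5 on the I3C diet, and monocyte and macrophage markers in 4 of 7 and 2 of 7 (summing to 12.4 to 22.3 CPM in I3C vehicle, 7.44 to 27.96 in I3C papain, 38.2 to 49.00 in AhR-poor vehicle and 47.5 to 94.7 CPM in AhR-poor papain). With the neutrophil markers as a covariate the *Prdm1* difference was 0.26 (adjusted p = 0.973) and 0.87 (adjusted p = 0.403) on the AhR-poor and the I3C diet, and with the fibroblast markers 0.50 (adjusted p = 0.801) and 1.32 (adjusted p = 0.04), and the part of such cells in its level was not tested further. The neutrophil marker level separates papain from vehicle completely on the I3C diet as well, so papain and marker level cannot be told apart there either.

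*Maf* encodes c-MAF, a large leucine zipper factor of terminal differentiation. *Maf* (chr8:115682942-115707794, minus strand, with 440 of 8241 exonic bases shared with *Gm15655* on the other strand) was measured at 314, 336, 373 and 299 CPM in I3C vehicle and 294, 328, 364 and 360.2 CPM in I3C papain. AhR-poor *Maf* levels were 228, 312, 344 and 303 CPM with vehicle and 187, 221, 233 and 250.5 CPM with papain. All 4 AhR-poor papain libraries were below all 4 I3C papain libraries, the I3C groups covered the same range, and the AhR-poor groups overlapped through T100, the lowest of its group.

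With papain, *Maf* differed between the diets, being lower on the AhR-poor one, by a log2 change of -0.59 ± 0.12 (SE, n = 4 and 4, adjusted p = 0.0012), 0.663 of the I3C level, with an exact permutation p of 0.0286. The difference passed the test in all 16 fits that left out 1 library, with values from -0.65 to -0.53 and adjusted p from 2.36e-04 to 0.00603. *Maf* also fell with papain on the AhR-poor diet, by 0.41 ± 0.12 on the log2 scale (SE, n = 4 and 4, adjusted p = 0.00986), with an exact permutation p of 0.0857, a value at the edge of the threshold that passed without T100, T106 or T112 and not without any of the other 13 libraries. Over all 16 such fits the value ran from -0.51 to -0.32 with adjusted p from 8.00e-04 to 0.0483. It turned to 0.055 (adjusted p = 0.91) with the fibroblast markers as a covariate and to 0.067 (adjusted p = 0.968) with the neutrophil markers. On the I3C diet papain against vehicle was 0.025 ± 0.12 (SE, n = 4 and 4, adjusted p = 0.901). The interaction of -0.44 ± 0.16 (SE) did not pass (adjusted p = 0.269), so a difference between the diets in the papain response of *Maf* was not shown.

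The lower *Trp63* and *Maf* of AhR-poor papain went with a higher level of fibroblast markers, of which 9 of 9 were higher in AhR-poor than in I3C papain. Other markers were higher in the same comparison, 6 of 6 of endothelial cells, 6 of 7 of monocytes and macrophages, 5 of 5 of mast cells, 5 of 5 of melanocytes and 3 of 5 of neutrophils. The rise was not general, with 2 of 4 higher for pericytes and smooth muscle, 2 of 3 tested for adipocytes, 1 of 6 for T cells and 1 of 5 for Langerhans cells. Eccrine sweat glands had 0 of 5 higher, and Schwann cells 1 higher and 1 lower of 5. The part of these cells was not tested. The mean log2 CPM of the fibroblast markers was 4.28 to 5.50 in the AhR-poor papain libraries and -1.65 to 0.0105 in the I3C papain libraries. With this mean as a covariate the diet difference was 0.70 (adjusted p = 1) for *Maf* and 0.30 (adjusted p = 1) for *Trp63*, with SE of 0.44 and 0.43. Since the fibroblast marker level separates the diets completely, diet and marker level cannot be told apart in such a fit. With the neutrophil markers the values were -0.15 (adjusted p = 1) and 0.072 (adjusted p = 1). Their mean log2 CPM was 1.53 to 4.22 in the AhR-poor papain libraries and -2.15 to -0.252 in the I3C papain libraries. These markers also separate the 2 groups completely, so the same limit holds for that fit. The 14 basal keratinocyte genes, the layer to which p63 belongs, had a median log2 change of -0.35 in the same comparison. Of them, 1 was higher and 3 were lower at an adjusted p below 0.01, where 8.13% of all genes were higher and 3.07% lower. Leaving out 1 library gave 0 to 1 higher and 1 to 5 lower. With vehicle the median of these genes between the diets was -0.24, and none of them passed.

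Across the members, papain against vehicle on the AhR-poor diet gave 8 values below 0 and 1 above, with a median log2 change of -0.30, while the median over all 22155 genes was -0.0044. *Grhl3* and *Maf* fell, 2 of 9, where 10.1% of all genes were lower and 12.4% higher by the same rule. None of the 9 was called at 2-fold by edgeR, 8.46% of all genes were, and DESeq2 called none either. An unadjusted p below 0.05 was reached by 6 members. The share of all genes at that rule is not given, here or for the unadjusted counts below. In this comparison it is larger than the 12.4% higher and 10.1% lower that passed the stricter adjusted rule. None of the unadjusted counts therefore shows an excess of members. Groups did not overlap for 2 of 9 members, *Klf4* and *Prdm1*, against 33.0% of all genes. On the I3C diet 5 members were below 0 and 4 above, with a median of -0.11 against -0.036 over all genes. None passed at any fold, where 12.9% of all genes were lower and 12.7% higher, and none was called at 2-fold (8.98% of all genes) by edgeR or DESeq2, with 4 at an unadjusted p below 0.05. *Grhl3* was the 1 member without overlap, against 33.4% of all genes.

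With vehicle, all 9 diet differences lay between -0.23 (*Ovol1*, 95% interval -0.66 to 0.19) and 0.18 (*Grhl3*, -0.17 to 0.53), and every pair of groups overlapped, where 8.12% of all genes had no overlap. None passed at any fold (1.72% of all genes) or at 2-fold (1.59%) by edgeR, none had an unadjusted p below 0.05, and DESeq2 called none. With papain, *Trp63* and *Maf* were lower on the AhR-poor diet, 2 of 9, where 3.07% of all genes were lower and 8.13% higher. By edgeR and by DESeq2 no member was called at 2-fold, against 7.24% of all genes, and 3 had an unadjusted p below 0.05. *Trp63*, *Zfp750* and *Maf* did not overlap, 3 of 9, against 24.9% of all genes. The interaction of diet and papain passed for no member at any fold or at 2-fold (0.0181% of all genes by either rule), 1 member (*Maf*) had an unadjusted p below 0.05, and DESeq2 called none. The comparisons share groups, so their values are not independent of each other.

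**Figure D3:**
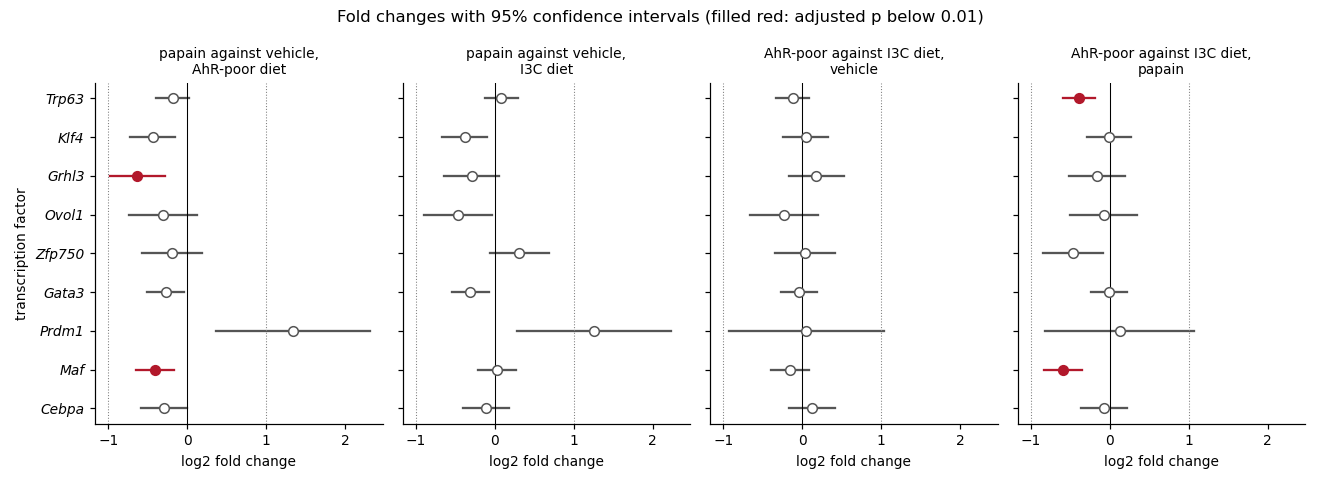
Log2 fold change of each transcription factor in 4 comparisons, with lines for 95% confidence intervals, filled red points at an adjusted p below 0.01 and dotted lines at 2-fold. *Grhl3* (-0.63) and *Maf* (-0.41) are red for papain on the AhR-poor diet, *Trp63* (-0.39) and *Maf* (-0.59) for the diets with papain, and *Prdm1* has the widest interval in every panel.

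T104 was the lowest AhR-poor papain library for 7 of 9 members, all but *Trp63* and *Prdm1*, and T103 the highest AhR-poor vehicle library for 5. In I3C vehicle, T111 was lowest for *Trp63*, *Klf4*, *Grhl3*, *Zfp750* and *Maf* and highest for *Gata3* and *Cebpa*, while T108 was highest for *Trp63*, *Klf4*, *Ovol1*, *Zfp750* and *Prdm1* and lowest for *Gata3* and *Cebpa*. In I3C papain, T113 was lowest for 6 members and highest for *Trp63* and *Prdm1*. Over 12662 genes, the median distance of a library to the others of its group (root mean square difference of log2 CPM) was 0.277 to 0.409, with T111 at the upper end, T108 at 0.384, T103 at 0.323, T113 at 0.315 and T104 at 0.298. The within-group SD of log2 CPM ran from 0.056 (*Grhl3* in I3C papain) to 0.84 (*Prdm1* in I3C vehicle).

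**Figure D4:**
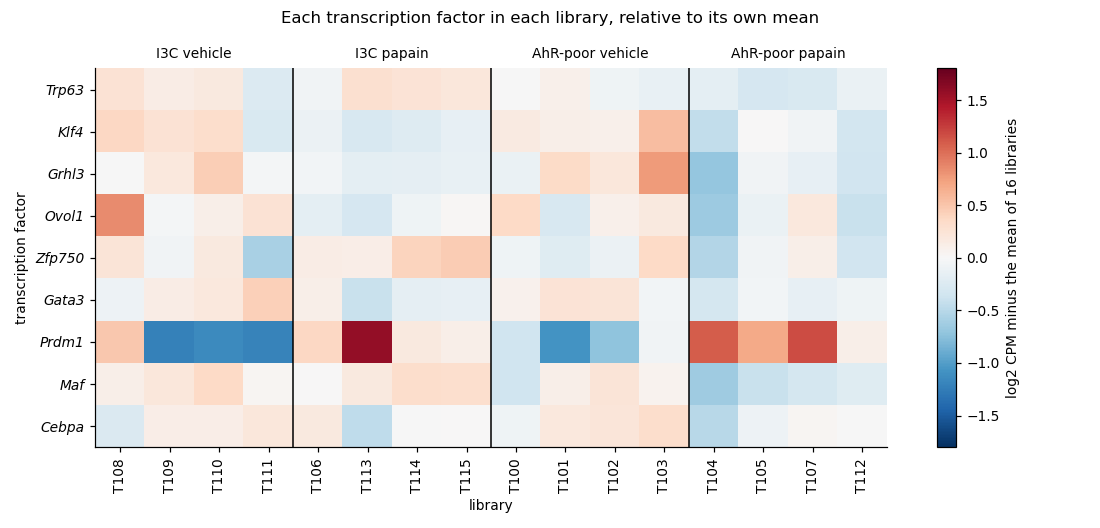
Log2 CPM of each transcription factor in each of 16 libraries minus its mean over the 16, in red above and in blue below the mean, with groups parted by black lines. The row of *Prdm1* has the strongest colours, T108 stands out from the other I3C vehicle libraries in that row, and the column of T104 is blue for every member but *Prdm1*.

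Of 24 other transcription factors of the epidermis, 3 rose, 5 fell and 16 did not pass with papain on the AhR-poor diet (median log2 change -0.25), and 3 rose, 9 fell and 12 did not pass on the I3C diet (median -0.28). For this and the lists that follow, the AhR-poor diet had 12.4% of all genes rising and 10.1% falling, the I3C diet had 12.7% rising and 12.9% falling, and the 3 that rose are close to such a share. Leaving out 1 library gave 2 to 4 rising and 4 to 6 falling on the AhR-poor diet, and 3 to 5 and 6 to 10 on the I3C diet. *Ehf*, an ETS factor of epithelia, rose from 18.7 ± 1.92 to 66.6 ± 7.70 CPM (SD, n = 4 each), a log2 change of 1.83 (adjusted p = 1.38e-07) on the AhR-poor diet and from 19.8 ± 3.22 to 84.8 ± 19.1 CPM (SD, n = 4 each), a log2 change of 2.10 (adjusted p = 1.49e-08) on the I3C diet. *Dlx3*, a homeobox factor of hair and epidermal differentiation, fell from 26.8 ± 2.84 to 12.6 ± 2.47 CPM (SD, n = 4 each), a log2 change of -1.09 (adjusted p = 4.53e-05) on the AhR-poor diet and from 36.8 ± 4.98 to 13.7 ± 3.11 CPM (SD, n = 4 each), a log2 change of -1.43 (adjusted p = 1.75e-06) on the I3C diet. *Ovol2*, the relative of *Ovol1*, fell on the I3C diet by a log2 change of -1.56 (adjusted p = 3.31e-04) and had -0.63 (adjusted p = 0.0974) on the AhR-poor diet.

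*Rora*, a nuclear receptor, fell on the AhR-poor diet by a log2 change of -0.77 (adjusted p = 1.01e-04), and *Ets1* rose there by 0.91 (adjusted p = 0.00308), though not without T103, T104 or T105. *Ehf* passed under every alternative on both diets. With papain, the AhR-poor diet had 2 of the 24 at a higher level than the I3C diet and 3 at a lower one. Of all genes, 8.13% were higher and 3.07% lower in that comparison, and the 2 higher are close to such a share. Leaving out 1 library gave 1 to 3 higher and 1 to 4 lower.

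Among 14 genes of the Notch pathway, which commits basal cells to the spinous layer, none rose and 2 fell on the AhR-poor diet (1 to 3 fell without 1 library), close to the share of all genes, with log2 changes for *Jag2* of -0.48 (adjusted p = 8.27e-04) and for *Hes1* of -0.50 (adjusted p = 0.0029), the latter not without T103 or T104. On the I3C diet 1 rose and 4 fell (1 to 2 and 2 to 4 without 1 library). The ligand gene *Jag1* had 0.64 (adjusted p = 1.47e-04), the other ligand gene *Jag2* -0.65 (adjusted p = 3.43e-05), and *Lfng*, which modifies Notch receptors, -1.55 (adjusted p = 2.18e-06). Median log2 changes were -0.24 on the AhR-poor diet and -0.18 on the I3C diet (-0.060 there without the 1 gene at the floor in both groups).

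The 14 basal keratinocyte genes moved in both directions, with 5 rising and 3 falling on the AhR-poor diet and 5 rising and 4 falling on the I3C diet (medians -0.020 and 0.27). *Cdh3*, encoding P-cadherin, changed by 0.92 (adjusted p = 1.33e-05) and 1.15 (adjusted p = 6.20e-07), *Krt15* by -1.38 (adjusted p = 1.13e-05) and -1.93 (adjusted p = 2.37e-07), and *Dst* by -1.28 (adjusted p = 2.72e-07) and -1.36 (adjusted p = 6.84e-08) on the AhR-poor and the I3C diet. *Cd44*, encoding a hyaluronan receptor, rose by 1.11 (adjusted p = 1.31e-07) on the I3C diet. Of the rising genes on the AhR-poor diet, 2 to 5 passed without 1 library.

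Of 10 spinous genes, 1 fell on the AhR-poor diet, the desmoglein gene *Dsg1a*, with a log2 change of -0.82 (adjusted p = 0.00118), where the median of the list was -0.37. On the I3C diet none of the 10 passed and the median was -0.026. Of 22 granular and cornified layer genes, 2 rose and 1 fell on the AhR-poor diet and 4 rose and 1 fell on the I3C diet (medians -0.29 and 0.19). *Sprr1a*, a small proline-rich envelope protein gene, rose by 1.89 (adjusted p = 4.81e-06) and 2.10 (adjusted p = 9.50e-07), and the transglutaminase gene *Tgm3* fell by log2 changes of -1.09 (adjusted p = 5.92e-06) and -1.12 (adjusted p = 2.52e-06). *Sprr1b* rose by 1.02 (adjusted p = 0.00668) on the AhR-poor diet, which was lost without T100, T101, T102, T105, T106, T107, T110 or T112, and *Cnfn*, encoding cornifelin, by 1.83 (adjusted p = 7.12e-04) on the I3C diet. Among 19 chromatin regulators of the epidermis, 4 fell on the AhR-poor diet, of which *Kdm5b* had a log2 change of -0.55 (adjusted p = 0.00228), and 1 rose and 4 fell on the I3C diet, with *Smarca4* at 0.42 (adjusted p = 3.14e-04) and *Ezh2* at -0.39 (adjusted p = 0.00138). With 1 library left out, 1 to 4 of the 19 fell on the AhR-poor diet.

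With either marker level as a covariate, *Ehf* and *Cdh3* still passed on the AhR-poor diet, where most genes did not. With vehicle, edgeR found a diet difference in none of the genes of the 6 lists at an adjusted p below 0.01 (1.72% of all genes). There were 26 at an unadjusted p below 0.05, with no share of all genes to set beside them, and 1 passed by DESeq2. The interaction also passed for none of them (0.0181% of all genes), with 20 at an unadjusted p below 0.05 and 2 by DESeq2. The lists were written with earlier results of these libraries known, so their counts are a description.

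**Figure D5:**
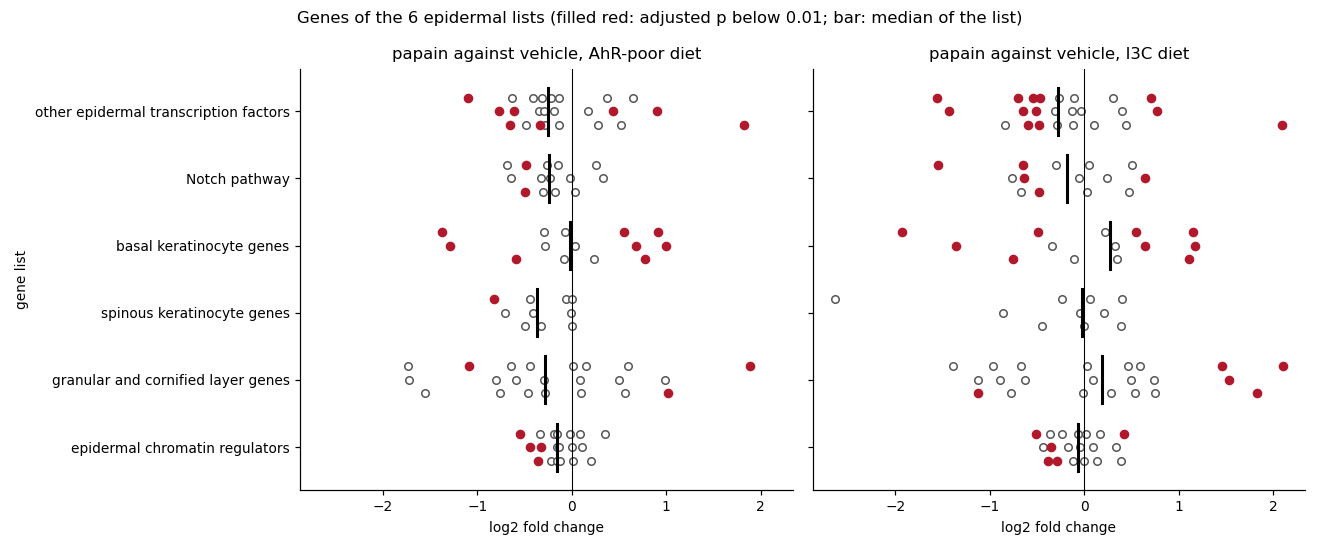
Log2 fold changes of papain against vehicle for every gene of the 6 lists, on the AhR-poor diet (left) and the I3C diet (right), filled red at an adjusted p below 0.01 and with a bar at the median of each list. Genes of the same list lie on both sides of 0, and on the AhR-poor diet the 24 other transcription factors have a median of -0.25 with *Ehf* farthest to the right at 1.83.

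Genes whose pattern over the 16 libraries was most like that of a member were found by the smallest root mean square difference of centred log2 CPM, among 12661 genes with at least 1 CPM on average and at least 8 counts in every library, for the 3 members that passed the test in a comparison. For *Trp63*, whose own values spread by 0.19 around their mean, these were *Smo*, the transducer of Hedgehog signals (0.085), *Sp1*, a general transcription factor (0.098), and *Cic*, a repressor (0.10). *Grhl3*, with a spread of 0.33, was closest to *Ppl*, encoding the cornified envelope protein periplakin (0.11), *Dock6* (0.11) and *Plekhn1* (0.11). *Maf*, with a spread of 0.29, was closest to *Zfp369* (0.12), *Fam83c* (0.12) and *Ces2g* (0.13).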

How the data were processed

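RNA of epidermal cells from 16 mouse footpad samples was sequenced as paired ends (TruSeq Stranded mRNA). The authors aligned reads with STAR to mm10 and deposited raw read counts per Ensembl gene. The counting tool, annotation release and strand setting are not given in the sources used here, and the sequencing unit of each library is not given either. Every library has 1 column, and there were 0 unused columns.

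Symbols, positions and exon lengths were taken from GENCODE annotation of GRCm38, and 50376 of 50600 identifiers had a symbol. Models were fitted to the 22155 genes whose counts over all libraries reached 10, with edgeR 4.0.16 (R 4.3.3, limma 3.58.1) by TMM factors (0.937 to 1.07), robust quasi-likelihood F tests and a mean for each of 4 groups over all 16 libraries. Genes with an adjusted p below 0.01 passed, and those with a log2 change beyond 1 were called, as in the thresholds of the study. CPM on the log2 scale used a prior count of 2. Exact permutation tests were made with scipy 1.17.1 and plots with matplotlib 3.10.9. The fit was tested on 2 simulated datasets with 200 changed genes each and the same dispersion for every gene. At an adjusted p below 0.01 it recovered 55 and 53 of 100 changes of 2-fold. Of the 3-fold changes it recovered 98 and 100, with 0 and 3 false calls.

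The members and lists were chosen with earlier results of these data known. All members were described. From each list and papain comparison, at most 2 rising and 2 falling genes were named, those with the largest changes among genes that passed, had at least 1 CPM and did not overlap between groups, together with called transcription factors. Alternatives were RLE or library size scaling, 3 other count filters, DESeq2 1.42.0, the 8 libraries compared alone, other thresholds, marker covariates and leaving out each library. Some genes that this rule names are not reported here.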

Additional observations from a re-analysis of the deposited data

Results flagged for a closer look

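Each of the 9 members was examined in each of the 4 groups for a single library far from the other 3, and 2 of these 36 groups held one, by the gap to its nearest neighbour over the whole range (Dixon's ratio). Chance marks about 1 in 20 groups. *Klf4* was at 1827 CPM in the AhR-poor vehicle library T103, where the other 3 were between 1328 and 1395 CPM. *Prdm1* was at 12.7 CPM in the I3C vehicle library T108, where the other 3 were between 3.87 and 4.08 CPM.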

How the results depend on the processing

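No paired analysis was possible because the replicate codes of the groups are not shared. Of 623 alternative values for 25 member differences (all papain values, *Trp63*, *Maf* and *Zfp750* between the diets with papain, *Ovol1* and *Grhl3* with vehicle, and the interaction of *Zfp750* and *Maf*), 555 kept their direction and their side of the threshold, 43 no longer passed, 8 newly passed and 17 changed sign. Those that no longer passed were 17 for *Maf* and 16 for *Grhl3* with papain on the AhR-poor diet, and 9 for *Trp63* and 1 for *Maf* between the diets with papain. None of the 493 alternative values of the other 20 member differences passed.

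The number of members called, 0 of 9 for papain on the AhR-poor diet, was 1 with only the 8 libraries compared, 1 at an adjusted p below 0.05, 2 with no minimum fold, and 0 to 1 with 1 library left out (1 without T108). On the I3C diet it was 1 at an adjusted p below 0.05 and 0 to 1 with 1 library left out (1 without T108). Between the diets with papain it was 2 with no minimum fold. With the fibroblast markers as a covariate, papain on the AhR-poor diet gave 0.061 for *Trp63*, 0.0026 for *Zfp750* and 0.055 for *Maf*, papain on the I3C diet gave -0.058 for *Maf*, the diets with papain gave 0.30 for *Trp63*, 0.079 for *Zfp750* and 0.70 for *Maf*, and the interaction was 0.11 for *Maf*. With the neutrophil markers, papain on the AhR-poor diet gave 0.32 for *Trp63* and 0.067 for *Maf*, and the diets with papain gave 0.072 for *Trp63*. Scaling by library size alone gave -0.024 for *Maf* with papain on the I3C diet. With 1 library left out, papain on the I3C diet ran from -0.0091 (without T111) to 0.15 for *Trp63* and from -0.017 to 0.081 for *Maf* (below 0 without T111, T114 or T115), and the diets with vehicle from -0.0090 (without T103) to 0.30 for *Grhl3*. The cause was not tested. Scaling by library size gave an adjusted p of 0.0456 for *Trp63* between the diets with papain, and RLE scaling 0.0146 for *Maf* with papain on the AhR-poor diet. Depth did not limit the members, whose lowest level lay far above the floor of 3 counts.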
